A study of Mus musculus with 12 samples.

Results

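SR proteins and heterogeneous nuclear ribonucleoproteins (hnRNPs) were read out across newborn wildtype and KIS-ko mouse brains through 36 genes with 616 main exon-array probesets, out of 17550 genes with 221417 such probesets. A gene was a member when its symbol in the array table began with Hnrn, Hnrp, Sfrs, Srsf or Tra2 and when it did not lie on chromosome 1 between 152.1 and 192.1 Mb, the region around the targeted gene. Hnrnpu, with 18 probesets in that region, was left out, and Hnrnpul2 was not measured by any probeset of the main type. No gene carried a symbol beginning with Srsf, because the table uses the older Sfrs names. In current names Sfrs1 to Sfrs7, Sfrs9 and Sfrs11 are the Srsf genes of the same number, Sfrs13a is Srsf10 and Sfrs13b is Srsf12. Sfrs12 is now called Srek1, Sfrs8 Sfswap, Sfrs14 Sugp2, Sfrs15 Scaf4, Sfrs16 Clasrp, Sfrs2ip Scaf11 and Sfrs12ip1 Srek1ip1. Filtering on spread left 606 probesets of these 36 genes, with 6 to 39 per gene and a median of 16, against a median of 10 over all genes.

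Brain RNA came from 12 newborn females on a C57BL6/N background, of which 6 were KIS +/+ (wildtype) and 6 were KIS-ko littermates. Each of 6 litters gave 1 pair, and each brain was measured on 1 Affymetrix exon array, which carries several probesets along each gene. KIS, the product of Uhmk1, is a protein kinase with a domain related to splicing factors. The labels and methods restrict the deletion to no cell type or time. In bulk RNA of brain, fewer cells of a type and less RNA per cell cannot be told apart.

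SR proteins carry RNA recognition motifs and a tail rich in arginine and serine, bind enhancer sequences in exons and help the spliceosome to recognize those exons. Their tails are phosphorylated by the SRPK kinases in the cytoplasm and by the CLK kinases in the nucleus, which governs their import, their release from nuclear speckles and their activity. hnRNPs coat nascent transcripts, often act against SR proteins at splice sites, and also take part in export, stability and translation of mRNAs. Many genes of both families hold highly conserved alternative exons with a premature stop codon, through which the proteins hold their own mRNA in check. Both families are abundant in developing brain, where neurons and their progenitors splice many transcripts differently.

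The targeted gene checked the genotype labels. Gene values are given as log2(signal + 16) averaged over the kept probesets of a gene, where the signal is the linear PLIER intensity in the table, so that differences of dim genes are understated. Uhmk1 (chromosome 1, 172130014 to 172145483) lay between 10.89 and 11.07 in wildtype and between 8.62 and 8.98 in KIS-ko brains, lower in all 6 litters. Markers of neurons (Tubb3, Stmn2, Snap25, Syt1, Map2 and Dcx) exceeded 713 in 6 of 6 genes, a signal that 95% of the control probesets placed in introns did not reach. The other lists were dimmer, with 3 of 4 genes above this level for astrocytes, the oligodendrocyte lineage and meninges, 2 of 9 for proliferating progenitors, 2 of 4 for erythroid cells, 1 of 4 for endothelium, 1 of 3 for choroid plexus and 0 of 4 for microglia. None of 42 marker genes of 9 cell types passed the adjusted test, and only the astrocyte gene Gfap (-0.27) had an unadjusted p under 0.05. The list medians of the difference KIS-ko minus wildtype ran from -0.096 in astrocytes (4 of 4 genes lower) and -0.082 in proliferating progenitors (8 of 9 lower) through -0.055 in the oligodendrocyte lineage, -0.043 in endothelium, -0.042 in meninges, -0.030 in neurons, -0.023 in microglia and -0.0019 in choroid plexus to 0.024 in erythroid cells. The summed linear signal of the progenitor markers was 6191 to 8024 in wildtype and 5856 to 7409 in KIS-ko arrays, and that of the astrocyte markers 7939 to 8663 and 7043 to 8582. Their part in the values below was not tested.

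The transcripts of SR proteins and hnRNPs were well detected. Of the 606 probesets, 459 (75.7%) had a mean signal above 713, against 44.6% of all probesets, and 587 (96.9%) lay above 114, the median of the controls. Cross-hybridization was more common than elsewhere on the array. The table marks 385 of the probesets (63.5%, against 84.9% of all) as matching 1 place (type 1), 97 as type 2 and 124 as type 3, the 2 classes open to signal from other transcripts. All probesets of Hnrnpa1, Hnrnpa3, Hnrnpf and Hnrnpr were of type 2 or 3.

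At the level of genes, no member passed the test between genotypes. With limma, the litter as a block and adjustment over all 17279 genes, 0 of the 36 had an adjusted p under 0.05, where 0.00579% of all genes did, a share that stands for Uhmk1 alone. Without adjustment 0 of 36 had a p under 0.05, against a background of 6.16% (4.34% lower in KIS-ko). The lowest adjusted p was 0.685. The gene values of the genotypes overlapped in 36 of 36 genes, and the share of all genes without overlap was only 0.208%. The 95% intervals of the differences reached from -0.33 (Sfrs5) to 0.14 (Tra2a), so that larger changes of a gene mean lay outside every interval, while changes of a few percent could not be resolved with 6 litters.

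The point estimates were small and mostly below 0. The difference was negative in 33 of 36 genes, where the background share of negative differences was 69.8%, but only in 16 of 36 (37.8% of all genes) once array medians were set equal, and in 26 of 36 (48.8% of all genes) after a second quantile normalization. The median over the 36 genes was -0.053, beside -0.036 over all genes, and became 0.0026 after this centring, beside 0.020. It was -0.088 without litter 4 and -0.030 without litter 5, beside -0.057 and -0.033 over all genes. A second quantile normalization gave -0.018 (all genes 0.0017), and bright probesets or the median over probesets gave -0.033 each (all genes -0.033 and -0.035), with 31 and 26 of 36 negative (72.5% and 66.5% of all genes). By role, the median was -0.075 in the 8 classical SR proteins (7 lower), -0.070 in the 6 SR-like splicing regulators (5 lower), -0.056 in the 6 other proteins with an Sfrs symbol (5 lower) and -0.040 in the 16 hnRNPs (16 lower). The hnRNP median was -0.070 and -0.019 without these litters. The medians of the other groups were also more negative without litter 4. Those of the classical SR proteins and the SR-like regulators were less negative without litter 5, and that of the other Sfrs proteins without litter 6. Centring moved the medians of the groups to -0.019, -0.015, -0.00040 and 0.016. Only Sfrs16 (0.0097), Tra2a (0.0062) and Sfrs6 (0.0012) had differences above 0 as deposited.

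**Figure D1:**
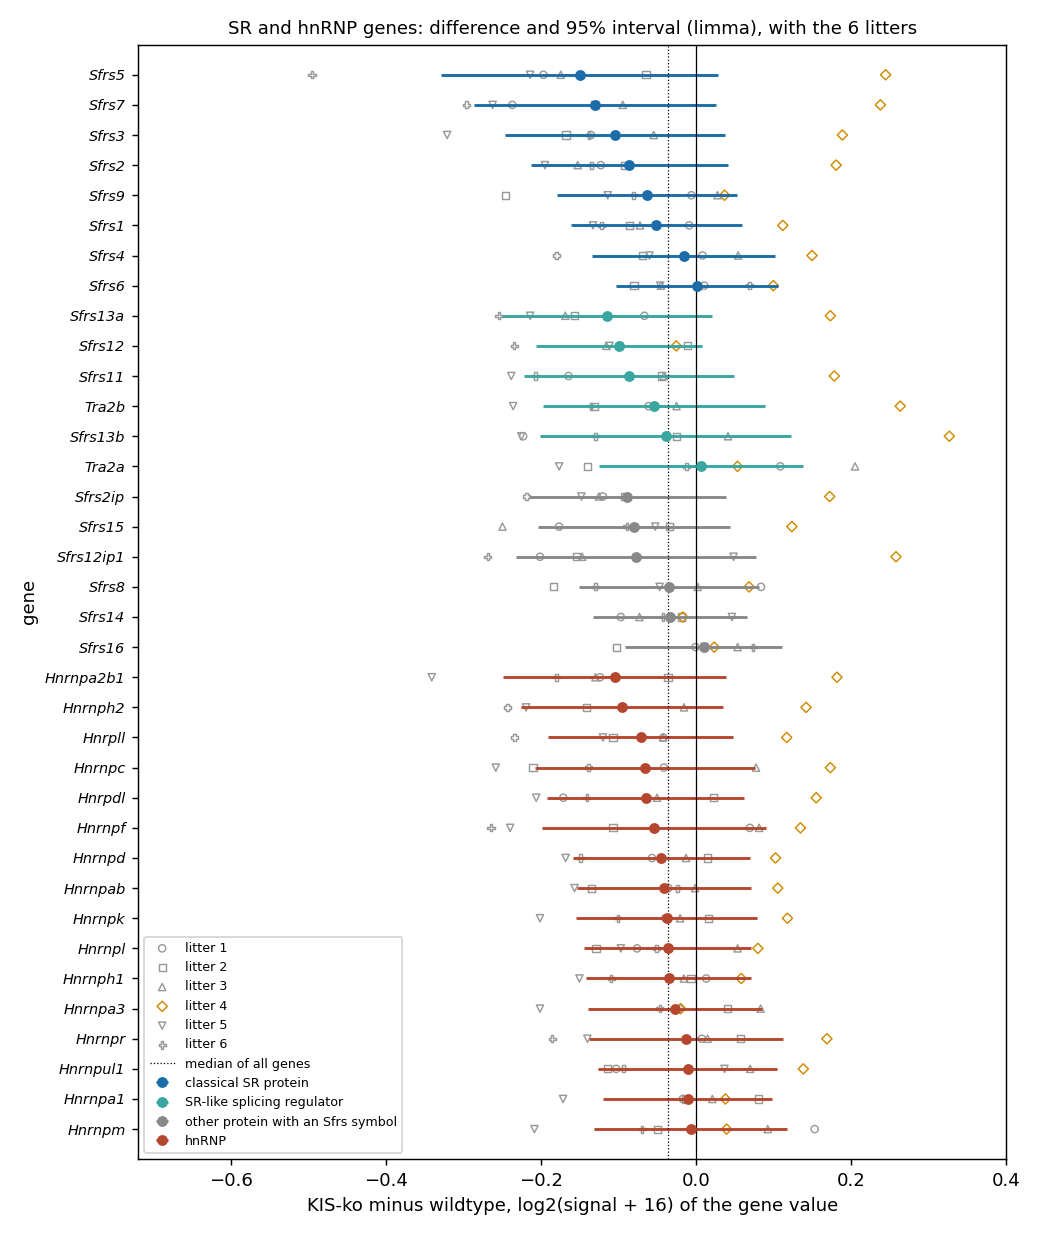
Difference KIS-ko minus wildtype of the gene value, log2(signal + 16), for the 36 genes by role, where filled points and bars are the limma estimate with its 95% interval, open symbols the 6 litters and the dotted line the median of all genes (-0.036). Every interval includes 0, and litter 4 (open diamonds) lies to the right of the estimate in nearly all genes, with 33 of 36 differences above 0.

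Among the classical SR proteins, Sfrs5 (SRp40) had the largest difference of all 36 genes. On chromosome 12 from 82047590 to 82051445, its gene value was 9.34, 9.59 and 9.70 (lowest, median and highest) in wildtype and 9.13, 9.41 and 9.74 in KIS-ko brains. The KIS-ko range took in the whole wildtype range. The difference was -0.15 (standard error 0.081, unadjusted p = 0.091 from limma), and the litters spread from -0.50 in litter 6 to 0.24 in litter 4, the widest spread of any member (SD 0.24). It was -0.23 without litter 4, -0.081 without litter 6, and -0.012 when probesets with a relative standard deviation above 0.2 were rejected, which kept 5 of its 15 probesets. That limit rejected all 7 probesets listed under a transcript record other than a RefSeq mRNA, which are described below. Sfrs7 (9G8), which also serves in mRNA export, followed with 9.96, 10.26 and 10.38 in wildtype and 9.89, 10.11 and 10.25 in KIS-ko brains. All 16 of its probesets were lower on average, and 5 of 6 litters were lower, yet the ranges overlapped over most of their length. The difference was -0.13 (standard error 0.070, unadjusted p = 0.091 from limma), and it was -0.20 without litter 4 and -0.098 without litter 6.

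Sfrs3 (SRp20), the smallest of the classical SR proteins, had gene values of 10.90, 11.14 and 11.20 in wildtype and 10.88, 11.01 and 11.09 in KIS-ko brains. The wildtype value of litter 4 stood apart below the others, and its litter was the only one with a higher KIS-ko value. The difference was -0.10 (standard error 0.064, unadjusted p = 0.132 from limma). Sfrs2 (SC35), a marker protein of nuclear speckles, lay at 12.01, 12.10 and 12.21 in wildtype and at 11.91, 11.97 and 12.19 in KIS-ko brains, a difference of -0.086 (standard error 0.057). Sfrs1 (SF2/ASF), the founding member of the family, lay at 10.56, 10.63 and 10.66 and at 10.45, 10.56 and 10.67, a difference of -0.052 (standard error 0.050). Without litter 4 these differences were -0.14 and -0.084, and without litter 5 they were -0.065 and -0.035. Both genes were lower in 5 of 6 litters, and in both the highest KIS-ko value lay within or above the wildtype range. The remaining classical members Sfrs9 (SRp30c, -0.064), Sfrs4 (SRp75, -0.016) and Sfrs6 (SRp55, 0.0012) had 95% intervals that include 0, as did all others.

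Among the SR-like regulators, Sfrs12 was the one gene of the 36 (2.78%, beside 2.52% of all genes) with the same direction in all 6 litters. Its protein acts on splicing chiefly through other SR proteins. The gene value (chromosome 13, 104531787 to 104554486) was 8.94, 9.06 and 9.18 in wildtype and between 8.81 and 9.07 in KIS-ko brains, where the median of 8.996 fell inside the wildtype range. The litter differences ran from -0.23 to -0.011, with a mean of -0.10 (standard error 0.048, unadjusted p = 0.065 and adjusted p = 0.685 from limma). The exact two-sided sign-flip permutation test over litters gave p = 0.03125, the smallest that 6 litters allow, for 1 gene picked among 36. It is also a dim gene, with 5 of 16 probesets above 713. After centring the difference was -0.044, and with the median over probesets it was -0.17.

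Sfrs13a (SRp38), which acts as a splicing repressor when dephosphorylated, had gene values of 10.26, 10.36 and 10.41 in wildtype and 10.05, 10.20 and 10.44 in KIS-ko brains. The KIS-ko brain of litter 4 held the highest value of all 12, and the other litters were lower. The difference was -0.11 (standard error 0.061, unadjusted p = 0.089 from limma). Sfrs13b lay at 9.84, 10.01 and 10.06 in wildtype and at 9.81, 9.92 and 10.16 in KIS-ko brains, with litter differences from -0.23 to 0.33 around a mean of -0.039 (standard error 0.073). This was the second widest spread of litter differences among the members (SD 0.21), and the mean was -0.11 without litter 4 and -0.0021 without litter 5. Sfrs11 (p54) had a difference of -0.086 (standard error 0.061), which was -0.14 without litter 4 and -0.056 without litter 5.

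The Tra2 proteins, activators that bind purine-rich exonic enhancers, gave no common direction. Tra2b lay at 10.14, 10.38 and 10.46 in wildtype and at 10.14, 10.33 and 10.40 in KIS-ko brains, with a difference of -0.054 (standard error 0.065) that was -0.12 without litter 4 and -0.018 without litter 5. Tra2a lay at 9.79, 9.98 and 10.07 and at 9.61, 10.06 and 10.18, with a difference of 0.0062 (standard error 0.059) and 3 litters on each side. The KIS-ko values of Tra2a spanned both a lower and a higher extreme than wildtype (SD 0.22 against 0.11). Its sign depended on the litters and on the probesets used.

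The other proteins with an Sfrs symbol differ in function from the SR proteins, and their differences ran from -0.089 to 0.0097. Sfrs2ip, an SR-related protein that binds SR splicing factors, had -0.089 (standard error 0.057), and Sfrs15, which binds the tail of RNA polymerase II, -0.080 (standard error 0.056). Both were lower in 5 of 6 litters. Sfrs12ip1 (-0.078, standard error 0.070), the regulator Sfrs8 (-0.035), Sfrs14 (-0.034) and the CLK4-associated Sfrs16 (0.0097) completed the group. Without litter 4 the differences were -0.14 in Sfrs2ip, -0.12 in Sfrs15 and -0.14 in Sfrs12ip1. They were -0.063 in Sfrs2ip and -0.039 in Sfrs12ip1 without litter 6, and -0.046 in Sfrs15 without litter 3. The wildtype and KIS-ko values of each of these genes overlapped.

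The hnRNPs of the A/B type bind RNA through paired recognition motifs. Hnrnpa2b1 lay at 10.48, 10.80 and 10.84 in wildtype and at 10.26, 10.67 and 10.77 in KIS-ko brains. All 17 of its probesets were lower on average, and the KIS-ko brain of litter 5 was below all other arrays. The difference was -0.10 (standard error 0.065, unadjusted p = 0.136 from limma), with 5 of 6 litters lower. Hnrnpa1, the antagonist of SF2/ASF in splice site choice, lay at 12.04, 12.16 and 12.28 in wildtype and at 11.95, 12.18 and 12.26 in KIS-ko brains, a difference of -0.011 (standard error 0.049). Its litters were lower in 3 cases and higher in 3. Hnrnpa3 (-0.028) and Hnrnpab (-0.041) were within 1 standard error of 0.

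Hnrnpc, a nuclear protein that binds uridine tracts, lay at 10.28, 10.65 and 10.69 in wildtype and at 10.33, 10.50 and 10.72 in KIS-ko brains. Its lowest value of all 12 was the wildtype brain of litter 4, and the difference was -0.066 (standard error 0.064). Hnrnpd (AUF1), which binds AU-rich elements in mRNAs, lay at 11.10, 11.19 and 11.25 and at 11.01, 11.18 and 11.21, a difference of -0.045 (standard error 0.051). Hnrnpk, which binds C-rich RNA through KH domains, lay at 12.39, 12.53 and 12.55 and at 12.35, 12.50 and 12.54, a difference of -0.038 (standard error 0.052). Without litter 4 the differences of Hnrnpc, Hnrnpd and Hnrnpk were -0.11, -0.074 and -0.069, and without litter 5 they were -0.028, -0.020 and -0.0055. In these 3 genes the medians of the genotypes differed by less than the range within either genotype.

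Hnrnpl, which binds CA repeats, lay at 11.60, 11.63 and 11.75 in wildtype and at 11.50, 11.63 and 11.68 in KIS-ko brains, a difference of -0.037 (standard error 0.049). Hnrnpm lay at 10.46, 10.50 and 10.64 and at 10.25, 10.49 and 10.73, a difference of -0.0072 (standard error 0.056). In both genes the medians of the genotypes nearly coincided. The difference of Hnrnpl was -0.060 without litter 4 and -0.018 without litter 2. Of the hnRNPs not yet described, Hnrnph2, which binds G-rich runs, had the largest difference (-0.095, standard error 0.059, 5 of 6 litters lower), followed by Hnrpll (-0.072) and Hnrpdl (-0.065). Hnrnpf (-0.055), Hnrnph1 (-0.035), Hnrnpr (-0.013) and Hnrnpul1 (-0.011) were within 1 standard error of 0.

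The methods of the study define the fold change of a gene as a mean over its probesets, each weighted by the inverse of its relative variation. Here the fold change of a probeset was taken as the mean over littermate pairs of the KIS-ko to wildtype ratio, a reading that the methods do not spell out. By this measure the 36 genes ran from 0.934 ± 0.039 (SD over 6 pairs) in Sfrs12 to 1.02 ± 0.059 in Tra2a, with a median of 0.985. As deposited 32 genes were below 1 (56.2% of all genes), but only 10 after the arrays were centred (25.2%), with a median of 1.02. Only Sfrs12 lay at least 6% from 1, against 26.4% of all genes, and Sfrs7 (0.940 ± 0.080) and Sfrs13a (0.944 ± 0.087) came next. After centring the paired measure put 0 of the 36 at least 6% from 1, beside 33.0% of all genes. The ratio of group means, with a median of 0.980, put 4 there (Sfrs7 0.931, Sfrs12 0.933, Sfrs13a 0.939 and Sfrs5 0.940), beside 25.5% of all genes.

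The litter differences spread widely around the mean difference between genotypes. The median difference over the 36 genes was -0.059, -0.089, -0.018, 0.13, -0.17 and -0.14 in litters 1 to 6, beside -0.046, -0.086, 0.0023, 0.071, -0.052 and -0.11 over all genes. The number of genes lower in the KIS-ko littermate was 28, 30, 22, 3, 32 and 34 of 36, where the share of all genes was 64.7%, 69.1%, 49.0%, 30.3%, 66.1% and 70.4%. In litter 4 the wildtype brain was low, with 31 of 36 genes below their mean over the 12 arrays (median deviation -0.058), and its KIS-ko littermate was above the mean (0.058, 7 genes below). In litters 5 and 6 it was the KIS-ko brain that was low, with median deviations of -0.18 (32 genes below) and -0.089 (33 genes below). Over all genes the median deviations on these arrays, in the same order, were -0.024, 0.041, -0.059 and -0.044. The array medians moved the same way in these litters. They were 483 and 517 for wildtype and KIS-ko in litter 4, 473 and 460 in litter 5, and 526 and 467 in litter 6. In litters 1 to 3 they were 524 and 497, 517 and 472, and 498 and 488. The array median fell more in litter 2 than in litter 5, where the 36 genes fell more. What set these values was not tested.

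Leaving out some single litter moved the difference by over 1.5 times, or turned its sign, in 34 of 36 genes (86.2% of all genes), the exceptions being Sfrs12 and Hnrnph2. Litter 4 did so in 30 genes (56.0% of all genes), litter 5 in 20 (40.1%) and litter 6 in 15 (58.9%). Of the alternatives run, leaving out litter 4 moved the count of unadjusted p under 0.05 most. Without it 14 of the 36 genes (38.9%) had one, beside 22.6% of all genes, and 0 of 36 passed the adjusted threshold. Of these 14 genes, the largest differences were those of Sfrs5 (-0.23), Sfrs7 (-0.20), Sfrs13a (-0.17), Sfrs3 (-0.16) and Hnrnpa2b1 (-0.16). Without any of the other litters the count was 0. Without litter 5 the differences of Sfrs3 and Hnrnpa2b1 were -0.061 and -0.058, and that of Hnrnpa2b1 was -0.034 with the median over probesets. Within genotypes the SD of the gene values was larger in KIS-ko than in wildtype brains in 28 of 36 genes (77.8%, against 56.7% of all genes). The medians of this SD were 0.12 in KIS-ko and 0.079 in wildtype brains, beside 0.113 and 0.105 over all genes.

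**Figure D2:**
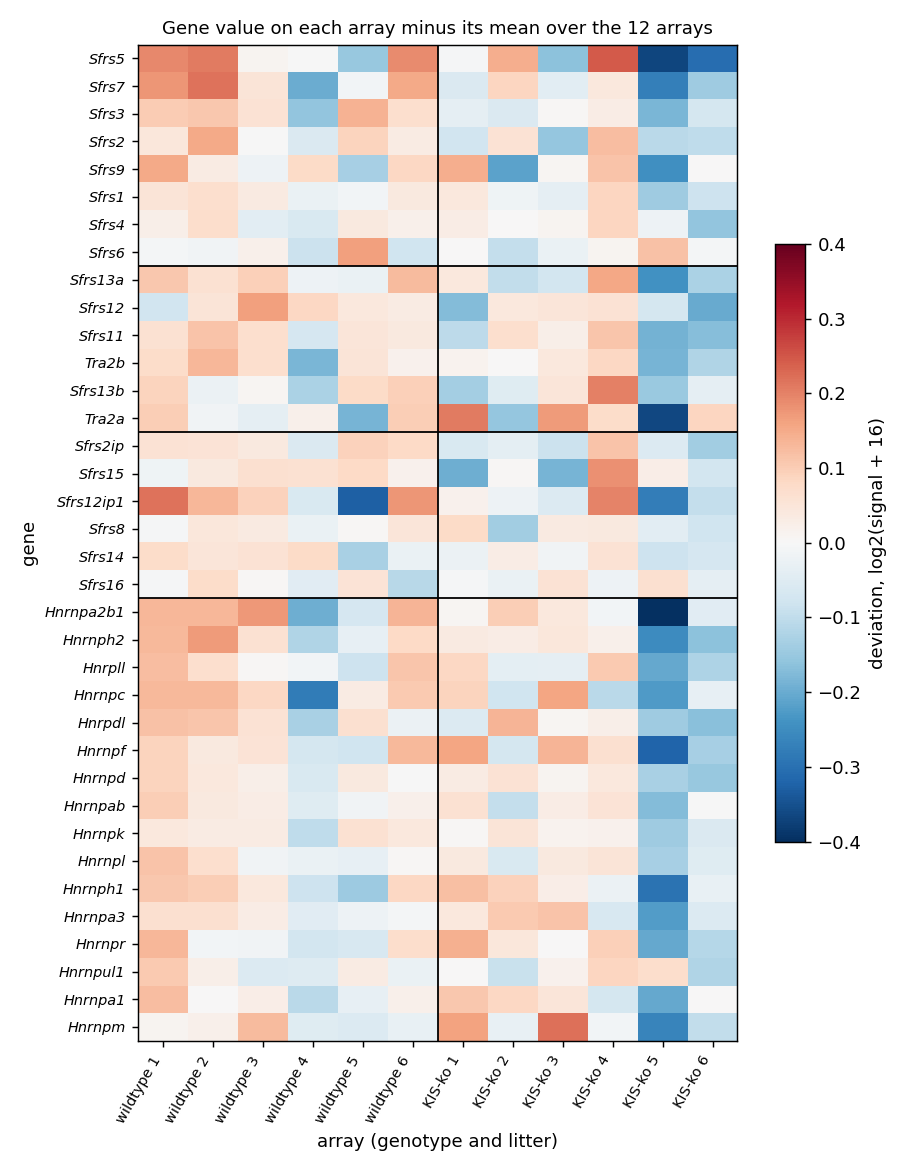
Heat map of the gene value of each of the 36 genes on each array minus its mean over the 12 arrays (colour scale, log2(signal + 16)), with genes in rows by role and arrays in columns by genotype and litter. The wildtype brain of litter 4 (median -0.058) and the KIS-ko brains of litters 5 (-0.18) and 6 (-0.089) form low columns across all roles. Over all genes the medians of these arrays were -0.024, -0.059 and -0.044.

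Since each gene was covered by several probesets, the data also show whether parts of its transcript moved against the rest, as a change of splicing would make them do. Taken singly, 0 of 606 probesets passed the adjusted test between genotypes, where 0.00487% of all probesets did, and 21 (3.47%) had an unadjusted p under 0.05, against 6.63%. The departure of a probeset is its difference minus that of the mean of the other probesets of its gene on the same arrays, in log2 units. For the departure 0 of 606 passed, where 0.000985% of all probesets did, and 20 (3.30%) had an unadjusted p under 0.05, against 6.09%. Among the 459 bright probesets 8 (1.74%) did, against 2.29%. The lowest adjusted p was 0.679. The direction was the same in all 6 litters for 15 probesets (2.48%, with 9 above and 6 below their gene), against 3.18% of all. The median half-width of the 95% interval was 0.15 in bright and 0.22 in dim probesets, which sets the precision for a typical probeset.

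**Figure D3:**
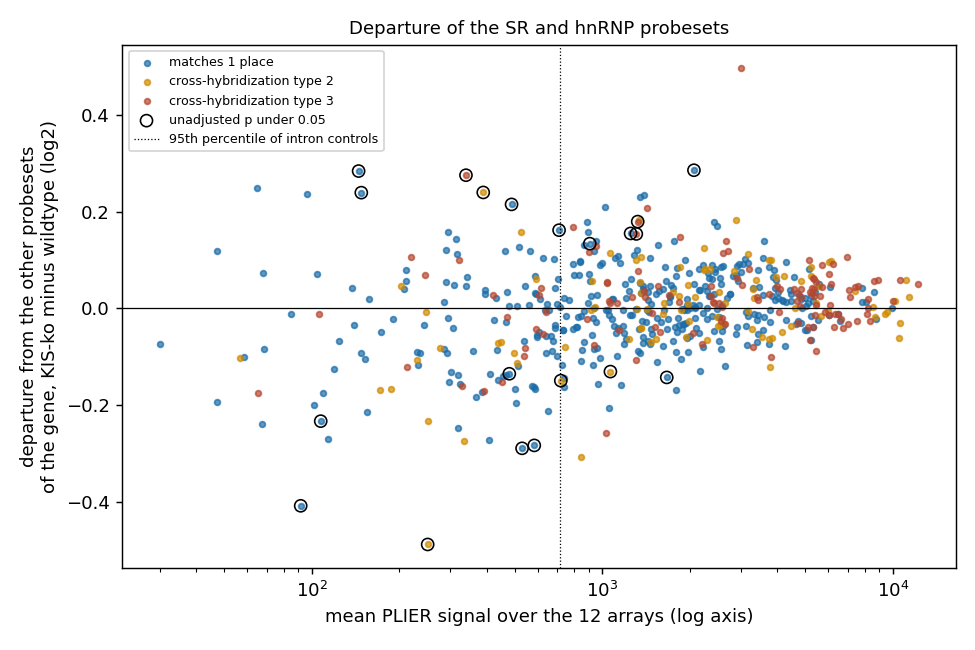
Departure of each of the 606 probesets from the other probesets of its gene (KIS-ko minus wildtype, log2) against its mean PLIER signal over the 12 arrays on a log axis, coloured by cross-hybridization type, with rings at an unadjusted limma p under 0.05 and a dotted line at 713 (95% of intron controls lie below). The spread narrows with signal, and 12 of the 20 ringed probesets are dim.

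The bright probesets of lowest unadjusted p lay in 4 genes. In Hnrnpa3, a probeset on chromosome X from 77702280 to 77702308 gave signals of 1103, 1264 and 1381 in wildtype and 1203, 1347 and 1609 in KIS-ko brains. Its departure was 0.18 (95% interval 0.046 to 0.31, unadjusted p = 0.014, higher in 6 of 6 litters). A second probeset of the same gene on chromosome 4 from 12160248 to 12160276 gave 1073, 1261 and 1418 against 1123, 1328 and 1630, a departure of 0.15 (unadjusted p = 0.023, higher in 6 of 6 litters). Both are 29 bases long and of cross-hybridization type 3, with nearly equal signals, and whether they share probe sequences was not tested. Hnrnpa3 has its own locus on chromosome 2, and the sets of probesets listed under its symbol on chromosomes X and 4 as a whole differed by -0.053 and -0.016.

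In Sfrs4, a pair of probesets near the 3′ end of the gene, with 4 others between them, departed in opposite directions. The one from 131456696 to 131456733 on chromosome 4 gave 1040, 1228 and 1289 in wildtype and 1200, 1328 and 1394 in KIS-ko brains, a departure of 0.16 (unadjusted p = 0.038, higher in 5 of 6 litters). The one from 131456995 to 131457373 gave 1586, 1745 and 1917 against 1283, 1574 and 1845, a departure of -0.14 (unadjusted p = 0.032, lower in 6 of 6 litters). Both match 1 place, and in both the signals of the genotypes overlapped. The probesets on each side of the latter had differences between genotypes of -0.14 and -0.12, so that the last 3 of the 20 probesets all had negative differences.

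In Hnrnpr, a probeset of type 2 on chromosome 4 from 135875375 to 135875402 gave 687, 764 and 821 in wildtype and 585, 676 and 791 in KIS-ko brains, with a departure of -0.15 (unadjusted p = 0.033, lower in 5 of 6 litters). A second probeset listed at the same coordinates departed by -0.080 (unadjusted p = 0.376, lower in 2 of 6 litters). In Sfrs14, a probeset matching 1 place on chromosome 8 from 72781029 to 72781114 gave 822, 887 and 932 against 910, 928 and 978, with a departure of 0.13 (unadjusted p = 0.036, higher in 6 of 6 litters). Its KIS-ko range was narrow and began above the wildtype median.

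The lowest p of all departures belonged to a pair of dimmer probesets, named here after their values were seen. In Sfrs4, a probeset that matches 1 place on chromosome 4 from 131442135 to 131442188, listed under a transcript record other than a RefSeq mRNA, gave 97.2, 133 and 159 in wildtype and 146, 152 and 177 in KIS-ko brains. These signals are close to the control median of 114. Its departure was 0.28 (95% interval 0.13 to 0.44) and was positive in 6 of 6 litters, with an unadjusted p of 0.0029 and an adjusted p of 0.679 by limma. In Sfrs2ip, a probeset made of 1 probe on chromosome 15 from 96254018 to 96254042 gave 498, 664 and 784 against 415, 496 and 617, with a departure of -0.28 (unadjusted p = 0.0029, lower in 6 of 6 litters).

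In 10 genes the table lists at least 3 probesets under a RefSeq mRNA and at least 3 under another transcript record, which allowed these parts of a gene to be compared. This comparison was chosen after the values were seen. The largest gap was in Sfrs5, where 7 neighbouring probesets from 82048889 to 82050025, between the RefSeq ones, all match 1 place. Their median signal was 537, 739 and 883 in wildtype and 432, 603 and 998 in KIS-ko brains. All 7 were lower on average, with a mean difference of -0.24 ± 0.42 (SD over 6 litters), but the litters ran from -0.79 in litter 6 and -0.60 in litter 3 to 0.32 in litter 4. With a relative standard deviation limit of 0.2, 0 of these 7 were kept. The 8 RefSeq probesets of the gene, all of type 2 or 3, differed by -0.071 ± 0.25. The gap between the parts was within the litters' spread (p = 0.406 by the same exact test as above, adjusted over the 10 genes p = 0.764).

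Sfrs7 showed a like arrangement. Its 6 probesets under another record, from 80603749 to 80604557 on chromosome 17, had a median signal of 1005, 1209 and 1282 in wildtype and 931, 987 and 1242 in KIS-ko brains and differed by -0.19 ± 0.25, lower in 5 of 6 litters. The 10 RefSeq probesets differed by -0.093 ± 0.18 (exact sign-flip permutation test of the gap, p = 0.219, adjusted p = 0.764). Sfrs8 had a gap of like size, with -0.12 ± 0.14 in 3 probesets under another record and -0.020 ± 0.11 in 19 RefSeq ones (p = 0.156 by the same exact test, adjusted p = 0.764). In Tra2b the 4 probesets under another record had no mean difference (-0.0014 ± 0.36), with 0.56 in litter 4 and -0.53 in litter 5, where the 14 RefSeq probesets differed by -0.070 ± 0.13. Over the 10 genes the litter SD of the other record was the larger one in 8, its difference the lower one in 7, and no gap had an adjusted p below 0.764.

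**Figure D4:**
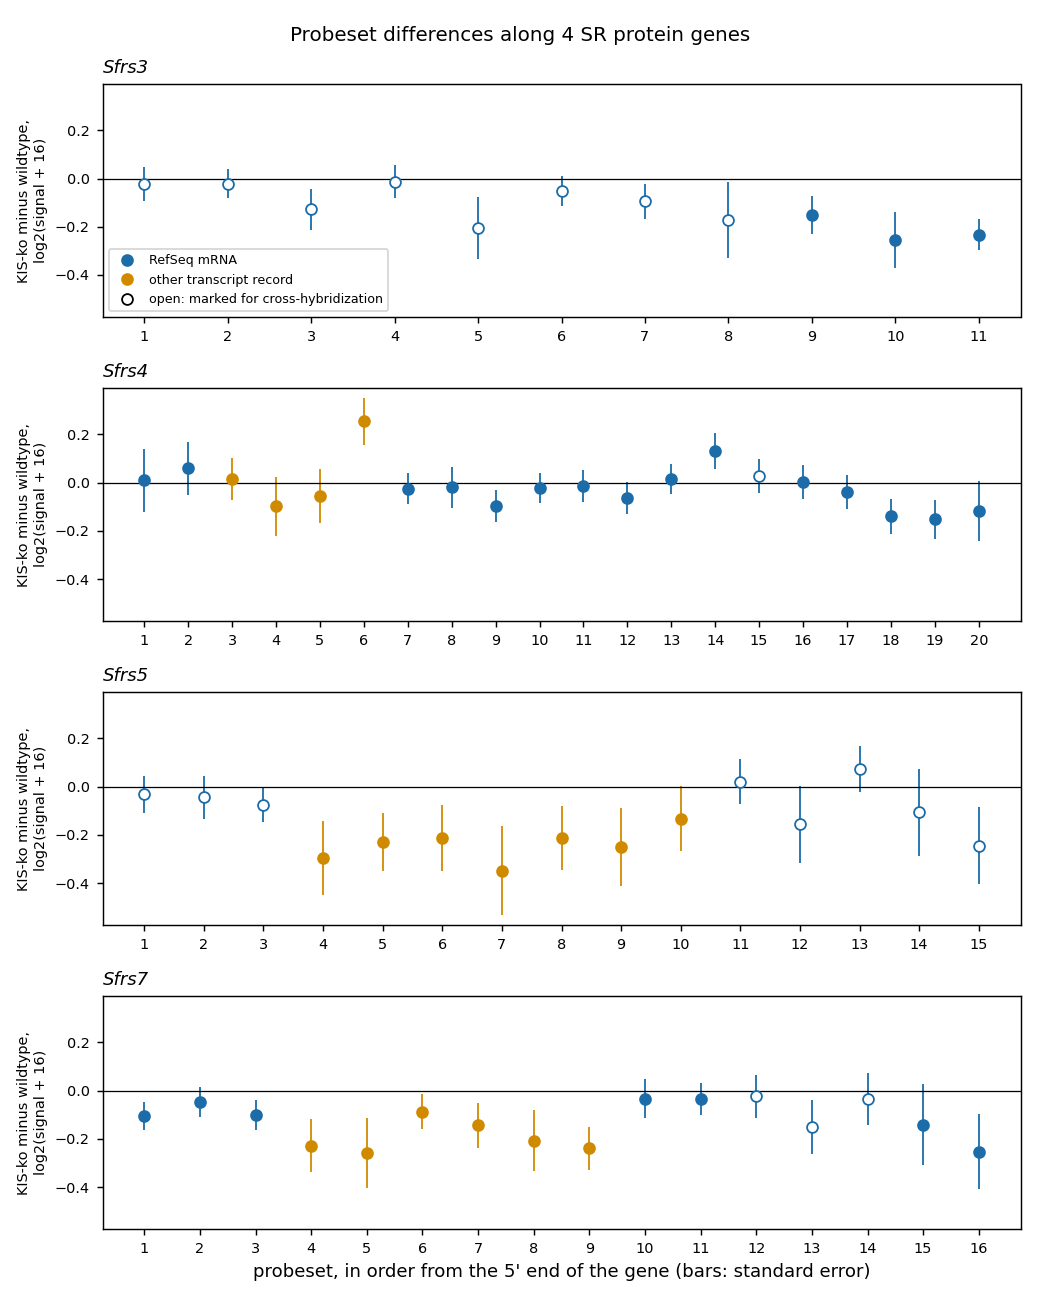
Difference KIS-ko minus wildtype of each probeset, log2(signal + 16) with its standard error, in order from the 5′ end of Sfrs3, Sfrs4, Sfrs5 and Sfrs7 on the gene's main chromosome, with blue for RefSeq mRNA, orange for another transcript record and open points for probesets open to cross-hybridization. The most 3′ probesets of Sfrs5 and Sfrs7 (-0.25 each), the orange run in the middle of Sfrs5 (mean -0.24) and Sfrs7 (-0.19) and the 3 filled points at the 3′ end of Sfrs3 (-0.21) lie lowest, with wide standard errors in Sfrs5.

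The median of type 2 probesets was near that of unique ones, and that of type 3 was less negative, as it was over all probesets. The median difference of single probesets was -0.047 for type 1, -0.051 for type 2 and -0.025 for type 3, beside -0.041, -0.044 and -0.023 over all probesets of these types. In the 12 genes with at least 3 probesets of each kind, a comparison also chosen after the values were seen, the unique ones were the lower ones in 9. The gap had the same direction in all litters only in Sfrs3, whose 3 unique probesets at the 3′ end differed by -0.21 ± 0.19 (SD over 6 litters) and whose 11 others differed by -0.075 ± 0.17. The unique probesets were relatively lower in 6 of 6 litters (gap -0.14 ± 0.11, exact sign-flip permutation test p = 0.03125, adjusted over the 12 genes p = 0.375). With unique probesets alone, Sfrs3 and Hnrnph2 had unadjusted limma p-values of 0.012 and 0.041, which makes 2 of the 32 members with such probesets, beside 6.44% of all genes, and 0 members passed the adjusted threshold.

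Some symbols cover several loci. Sfrs3 has 11 probesets on chromosome 17 (29173238 to 29180176) and 3 on chromosome 11, all 3 of them open to cross-hybridization, with differences of -0.12 ± 0.18 and -0.040 ± 0.13. Hnrnpa1 has 12 on chromosome 15 and 6 on chromosome 9, with -0.0088 ± 0.10 and -0.015 ± 0.061. Hnrnpa3 has 17 on chromosome 2, 7 on chromosome 3, 9 on chromosome 4 and 6 on chromosome X, with differences between -0.053 and -0.016. No locus differed from 0 by the exact sign-flip permutation test (p of at least 0.188), and in Hnrnpa1 and Hnrnpa3, which have no unique probeset, signal of a locus and of its copies cannot be told apart.

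The genes that act on SR proteins were described in the same way. Of 14 kinases, modifying enzymes and import factors, 13 had negative differences (69.8% of all genes did), 0 passed the adjusted test and 1 (7.14%, beside 6.16%) had an unadjusted p under 0.05. The median was -0.053, and after centring 6 of 14 were negative (37.8% of all genes). The gene with the low p was Clk1, the nuclear kinase of SR proteins (chromosome 1, 58468869 to 58478772), at 9.93, 10.09 and 10.22 in wildtype and 9.67, 9.79 and 10.18 in KIS-ko brains. Its difference was -0.21 (standard error 0.082, unadjusted p = 0.026, adjusted p = 0.685 from limma), with 5 of 6 litters lower and 0.25 in litter 4. After centring the difference was -0.16 (unadjusted p = 0.061), and with the median over probesets -0.22 (unadjusted p = 0.054). It was -0.31 without litter 4 and between -0.24 and -0.18 without each of the others, where the unadjusted p was above 0.05 without litter 1, 3, 5 or 6 (0.059, 0.078, 0.075 and 0.071). Srpk1 (-0.055), Srpk2 (-0.051), Clk4 (-0.058) and the import receptor Tnpo3 (-0.051) lay close to the median. Without litter 4 they were -0.089, -0.078, -0.10 and -0.077. Srpk1, Clk4 and Tnpo3 were -0.026, -0.016 and -0.023 without litter 6, and Srpk2 was -0.031 without litter 5.

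Of 16 SR-related proteins that were found in the table, 16 had negative differences as deposited (median -0.051) but 6 after centring (median 0.0045), and 0 had an unadjusted p under 0.05. Over all genes 69.8% were negative as deposited (median -0.036) and 37.8% after centring (median 0.020), and 6.16% had such a p. The SR-related median was -0.087 without litter 4 and -0.032 without litter 5 (all genes -0.057 and -0.033). A second quantile normalization made it -0.015, with 11 of 16 negative (all genes 0.0017, 48.8% negative). Among the SR-related proteins Rsrc1 had the largest difference (-0.15, unadjusted p = 0.091 from limma), which was -0.069 without litter 6 and -0.22 without litter 4. Of 20 hnRNP proteins with other symbols, 18 had negative differences as deposited (median -0.034) but 5 after centring (median 0.022), and again 0 had an unadjusted p under 0.05. Their median was -0.049 without litter 4 and -0.029 without litter 5. A second quantile normalization gave -0.0055, with 12 of 20 negative. Among these 20 genes Ptbp2, the neuronal polypyrimidine tract binding protein, differed by -0.074 and its paralogue Ptbp1 by -0.031. Ptbp2 was -0.12 without litter 4 and -0.049 without litter 6, and Ptbp1 was -0.072 without litter 4 and -0.0022 without litter 2. Without litter 4 an unadjusted p under 0.05 was found in 3 of 14, 4 of 16 and 2 of 20 genes of these lists, beside 22.6% of all genes. Srrm4, Pnisr, Pcbp4 and Dazap1 were not matched to a symbol of the table.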

How the data were processed

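Total RNA of the 12 brains was hybridized by the authors to Mouse Exon 1.0 ST arrays. Per the submitters' processing notes and the methods, Affymetrix Expression Console with PLIER at the exon level gave the deposited values, which are linear intensity per probeset and array. They were used without further normalization. The genome build is not given in the sources used here, and positions are those of the table. Main probesets with a symbol and a relative standard deviation of at most 0.4 in both genotypes were kept, as in the methods (15948, 7.20%, rejected). The intensity was taken as log2(signal + 16), and genes, probesets and departures (genes with at least 3 probesets) were compared in limma (version 3.58.1, R 4.3.3). Each fit covered all features, had litter as a fixed block and used the Benjamini-Hochberg method at 0.05. The code was tested on simulated data. For single values the litter differences entered an exact two-sided permutation of signs. Current names come from RefSeq (GRCm38.p6). Figures were drawn with matplotlib 3.10.9.

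The members, gene lists and tests were chosen with earlier results of these data known. The genes given with values per genotype are a roster of classical members (Sfrs1, Sfrs2, Sfrs3, Tra2a, Tra2b, Hnrnpa1, Hnrnpa2b1, Hnrnpc, Hnrnpd, Hnrnpk, Hnrnpl and Hnrnpm), the 2 members of widest litter spread, pathway genes with an unadjusted p under 0.05, and the 6 bright probesets of lowest departure p. Sfrs7, Sfrs12, Sfrs13a and others so described were added after their values were seen. No 2 arrays were identical (correlation 0.977 to 0.990). Pairing comes from the litter in the labels. The deviations of littermates correlated by -0.11 to 0.47, with a mean of 0.10 against -0.019 between litters. The number of arrays and signal over background limit precision.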

Additional observations from a re-analysis of the deposited data

Results flagged for a closer look

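In 7 of the 72 sets of 6 brains (36 genes in each genotype), 1 brain lay far from the other 5, where chance alone gives about 1 in 20. By the same measure 9.72% of the sets of these genes stood out, beside 6.45% of the sets of all genes. Of these, 5 of 36 are the wildtype brain of litter 4, below the others (2.01% of all genes). Its gene values were 10.28 in Hnrnpc (nearest other brain 10.59), 12.39 in Hnrnpk (12.52), 9.80 in Sfrs2ip (9.90), 10.90 in Sfrs3 (11.12) and 10.14 in Tra2b (10.34). The other 2 are the KIS-ko brain of litter 5 (1.67% of all genes), with 10.26 in Hnrnpa2b1 (10.63) and 10.91 in Hnrnph1 (11.18). The genes share arrays, so that these values are not independent of each other, and the reason was not tested.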

How the results depend on the processing

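In all alternatives run, 0 member genes, probesets or departures passed the adjusted threshold. The count of genes with an unadjusted p under 0.05, 0 as reported, was 1 with a relative standard deviation limit of 0.2 (Sfrs12; 8.13% of all genes), with bright probesets (Sfrs5, 5.64%) and with the median over probesets (Sfrs12, 6.31%), 2 of 32 with probesets matching 1 place (6.44%), and 0 to 14 of 36 with 1 litter left out (3.18% to 22.6%). The count of probesets, 21 as reported, was 40 of 606 with trend and robust moderation (6.98% of all probesets) and 8 to 99 with 1 litter left out (3.85% to 16.1%). For departures, 20 as reported, it was 11 to 69 (4.22% to 12.1%). The highest of each came without litter 4. Without the litter as a replicate block these counts were 0, 15 and 19 (5.89%, 5.79% and 5.61% of all features), and over all features 26 probesets and 18 departures passed the adjusted threshold in place of 10 and 2, none of them members. Members with a negative difference numbered 16 after centring, in place of 33.

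The sign of 17 of the 36 gene differences turned after centring (32.1% of all genes), of 7 after a second quantile normalization (21.0%) and of 9 with the median over probesets (17.2%), and the cause was not tested. Among the genes described by genotype, the difference after centring was 0.045 in Hnrnpa1, 0.011 in Hnrnpd, 0.017 in Hnrnpk, 0.019 in Hnrnpl, 0.049 in Hnrnpm, 0.0040 in Sfrs1, 0.016 in Sfrs13b and 0.0012 in Tra2b. A second quantile normalization gave 0.016 in Hnrnpa1 and 0.030 in Hnrnpm. With the median over probesets it was 0.0097 in Hnrnpa1, 0.012 in Hnrnpl, 0.050 in Hnrnpm, 0.032 in Sfrs13b and -0.037 in Tra2a. Tra2a was also -0.018 with the limit of 0.2, and -0.014, -0.034 and -0.0032 without litters 1, 3 and 4. Without litter 5 Hnrnpa1 was 0.021, and without litters 2, 5 and 6 Hnrnpm was 0.0013, 0.033 and 0.0053. With 1 litter left out the ranges were -0.029 to 0.021 in Hnrnpa1, -0.039 to 0.033 in Hnrnpm and -0.034 to 0.043 in Tra2a. Dim probesets limit what can be said of single exons.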
